A study of Mus musculus with 93 samples.

Results

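Genes of Mueller glia homeostasis are described here in the neural retina of mice with and without a knock-in allele of Efemp1. The set holds 10 genes of the 30235 in the deposited tables, chosen by symbol: the transcription factor genes Hes5, Hes1 and Sox9, the secreted and surface protein genes Gpr37, Prss56 and Dkk3, and the transport and metabolism genes Glul, Slc1a3, Aqp4 and Kcnj10. These genes were chosen with earlier results of these data known. All 10 were among the 17240 genes that passed the filter on low counts and were tested. The 6 neural retina groups came from untreated female mice that were wild type (Efemp1+/+) or Efemp1ki/ki, each at 3, 9 and 17 months of age, with 8 libraries per group. Efemp1ki/ki mice are homozygous for the knock-in, a model of the human macular disorder Doyne honeycomb retinal dystrophy, in which material collects beneath the pigment epithelium. Every cell of these mice carries the allele, so no retinal cell type is singled out by the genotype. Whether 1 mouse gave 1 library is not in the labels, and all p-values therefore reflect how these libraries spread, which may be technical. Poly(A) RNA was sequenced from whole tissue, and fewer cells of a type and less RNA per cell cannot be told apart in it.

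Mueller glia are the main glia of the vertebrate retina and span its whole thickness. They take up glutamate through the transporter encoded by Slc1a3 (EAAT1 or GLAST), convert it to glutamine with the enzyme encoded by Glul, and return glutamine to neurons. Water passes through the channel encoded by Aqp4 and potassium through the channel encoded by Kcnj10 (Kir4.1), both concentrated at their endfeet. Notch signalling, through the transcription factor RBPJ, switches on Hes1 and Hes5, repressors that hold back neuronal genes during gliogenesis, and Sox9 is a transcription factor that glia need for their formation. Gpr37 encodes a receptor of glia, Dkk3 a secreted glycoprotein related to Wnt inhibitors, and Prss56 a secreted serine protease that in the mouse eye is made by Mueller glia and is needed for normal eye growth.

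The retina libraries held 9218127 to 37475492 estimated counts (median 16813522). A check of each library against its group set 2 of the 48 apart, library 5 of the Efemp1ki/ki group at 3 months and library 2 of the wild-type group at 17 months. Their levels also moved with the GC content of transcripts: the GC trend, the slope of a library's log2 deviation from the other libraries per 10 percentage points of GC, was -0.34 in the former and 0.42 in the latter. The knock-in is known as a change within the protein, so the transcript count of Efemp1 is no check of the genotype labels. Rod markers, 13 genes, summed to 54427 to 67037 TPM across the 48 libraries, as fits neural retina.

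Per transcript length, on the scale of the deposited TPM, Glul was the most abundant of the 10 genes, with a median of 2498 over the 48 retinas (2264 to 2820), and ranked 24 among protein-coding genes. Dkk3 followed at 574 (516 to 635). Slc1a3 at 125, Gpr37 at 115 and Aqp4 at 111 TPM came next, and the ranges of these 3 genes overlapped. Kcnj10 stood at 43.4 TPM, Hes5 at 35.2, Prss56 at 29.0, Hes1 at 26.8 and Sox9 at 16.3. Neighbours in that lower part of the order overlapped as well, and Prss56 spread the most, from 13.4 to 102 TPM.

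The posterior eyecup, sequenced in the same series as 45 libraries without retina, gave levels to set beside those of the retina. The share of all genes with ranges apart between the tissues was not computed, so the counts here are descriptions only. Of the 10 genes, 6 were higher in every retina than in any eyecup: Glul (eyecup median 824 TPM), Dkk3 (170), Slc1a3 (58.0), Gpr37 (31.2), Aqp4 (41.7) and Hes5 (3.25). Kcnj10 and Prss56 were higher in the retina at the median, with eyecup medians of 25.8 and 1.39 TPM, and their ranges overlapped. Hes1 and Sox9 went the other way. Hes1 was at 123 TPM in the eyecup (61.5 to 191) and higher there than in any retina, and Sox9 was at 24.05 (18.3 to 34.2), with overlap.

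Promoter windows from the RefSeq promoter table (GRCm38.p6) were used for 6 of the 10 genes. The 250 bases before the start site are shown for 3 of them: Hes5, for its genotype difference at 3 months, Prss56, which had the largest fold changes of the set, and Slc1a3, for its fall with age. The window of Gpr37 lies within the annotated gene and is not shown. Capitals mark matches, on either strand, to GTGGGAA, the core that RBPJ is known to bind, or to CACNAG, the N box that HES repressors are known to bind. The windows lie at chr4:154960673-154960922 (+ strand, Hes5), chr1:87183064-87183313 (+ strand, Prss56) and chr15:8710808-8711057 (- strand, Slc1a3).
Hes5: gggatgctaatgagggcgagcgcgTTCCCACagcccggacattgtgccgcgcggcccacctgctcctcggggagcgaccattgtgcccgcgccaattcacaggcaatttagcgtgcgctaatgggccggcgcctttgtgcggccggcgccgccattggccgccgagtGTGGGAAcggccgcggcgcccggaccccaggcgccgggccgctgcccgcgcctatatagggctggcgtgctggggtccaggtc
Prss56: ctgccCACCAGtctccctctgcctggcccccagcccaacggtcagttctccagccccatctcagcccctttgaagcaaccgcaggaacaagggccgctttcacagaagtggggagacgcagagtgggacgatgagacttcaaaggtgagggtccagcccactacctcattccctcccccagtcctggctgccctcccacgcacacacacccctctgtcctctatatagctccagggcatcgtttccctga
Slc1a3: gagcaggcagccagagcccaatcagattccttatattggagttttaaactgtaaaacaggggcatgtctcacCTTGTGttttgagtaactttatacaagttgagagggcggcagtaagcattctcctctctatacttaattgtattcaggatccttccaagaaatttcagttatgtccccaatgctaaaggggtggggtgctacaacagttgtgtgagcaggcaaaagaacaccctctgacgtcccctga
The Hes5 window held 2 GTGGGAA matches, 1 on the opposite strand with its first base at -226 and 1 on the same strand at -83. Of 32851 promoter windows of the same length, 5.42% held at least 1 match and 0.161% held 2 or more. CACNAG had 1 match in the Prss56 window, at -245, and 1 on the opposite strand of the Slc1a3 window, at -178. That motif is common, in 36.7% of windows. The Glul and Gpr37 windows each held 1 CACNAG match and no GTGGGAA, and the Kcnj10 window held neither. A match is a description of these letters only.

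Between genotypes, the genes of the set that passed the test were all lower in Efemp1ki/ki retinas. Because the set was chosen with earlier results known, shares of all genes are given for scale and are no test of the set. At 3 months 3 of 10 fell, Hes5, Hes1 and Gpr37, at an adjusted p under 0.05 in edgeR's quasi-likelihood test, where 1.83% of all genes were called and 0.87% were called lower. At 17 months 1 of 10 fell, Prss56, against 0.406% of all genes called and 0.226% called lower. At 9 months none of the 10 was called, nor was any other gene (0.0%). There, edgeR gave 1047 genes an unadjusted p under 0.05, among them 2 of the set, and DESeq2 and limma also called none.

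In the mean genotype difference over the 3 ages, 4 of 10 fell, Gpr37, Hes5, Hes1 and Slc1a3, where 5.24% of all genes were called and 2.69% called lower. The fitted difference was below 0 for 9 of the 10 genes at 3 months (median log2 fold change -0.11, against -0.00099 for all genes tested), 8 at 9 months (median -0.05) and 9 at 17 months (median -0.08). The members' ranges overlapped between genotypes for each of the 10 genes at each age. Ranges without overlap were seen for 0.418% of all genes at 3 months, 0.0116% at 9 months and 0.11% at 17 months.

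With age, from 3 to 17 months, the set split. In wild-type retinas Prss56 and Hes5 rose (2 of 10, against 9.89% of all genes called higher) and Slc1a3 and Glul fell (2 of 10, against 7.92% called lower and 17.8% called in all). In Efemp1ki/ki retinas Hes5 and Sox9 rose (2 of 10, against 9.74%) and Slc1a3 fell (1 of 10, against 9.01%, and 18.8% in all). The comparisons within an age and across ages share libraries, so their values are given side by side.

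**Figure D1:**
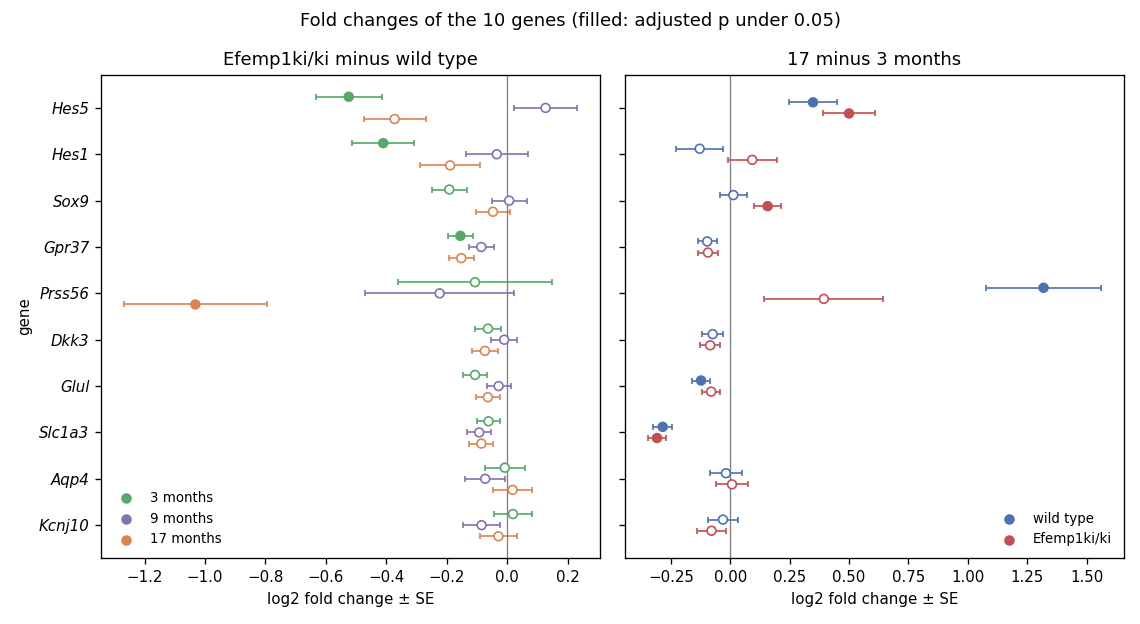
Log2 fold changes with SE (x axis) of the 10 genes (y axis), for Efemp1ki/ki minus wild type at 3 ages on the left and for 17 minus 3 months in each genotype on the right, with filled points where edgeR's adjusted p was under 0.05. On the left, the filled points are Hes5, Hes1 and Gpr37 at 3 months and Prss56 at 17 months, all below 0.

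Hes5 had the largest genotype difference of the set that also kept its call in each of 9 alternatives. At 3 months the wild-type retinas held 9.94 CPM at the lowest, 13.4 at the median and 15.5 at the highest, where CPM is the count scaled to 1000000 per library after TMM normalization. The Efemp1ki/ki retinas held 6.30, 9.04 and 11.8 CPM. All 8 Efemp1ki/ki libraries lay below the wild-type median and 6 of 8 below the wild-type range. The log2 fold change was -0.52 ± 0.11 (SE, edgeR adjusted p = 0.0107), and the means were 13.1 ± 1.94 and 9.12 ± 1.58 CPM (SD, n = 8 each). Over the 9 alternatives it ran from -0.55 to -0.35, the smallest difference being that of limma on TPM.

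At 9 months the Hes5 ranges lay over each other. Wild-type retinas spanned 9.07 to 16.2 CPM (median 13.5) and Efemp1ki/ki retinas 11.1 to 17.1 (median 14.0), with a log2 fold change of 0.13 ± 0.10 (adjusted p = 0.858). At 17 months the knock-in libraries were low again. Wild type ran from 14.5 to 19.3 CPM (median 16.6) and Efemp1ki/ki from 11.3 to 14.8 (median 12.9), and 7 of 8 Efemp1ki/ki libraries lay below the wild-type range. The log2 fold change of -0.37 ± 0.10 missed the threshold in edgeR (adjusted p = 0.0841) and passed it with DESeq2 (0.0353), with an offset for GC content (0.0347) and with limma on TPM (0.0491).

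Between 3 and 9 months the genotype difference of Hes5 shifted by 0.65 ± 0.15, which did not pass (adjusted p = 0.137, and 0.0412 to 0.294 over the alternatives, the lowest with DESeq2). Of all genes 0.0174% were called in that comparison, none of the 10 members among them. Hes1 (0.38 ± 0.14) and Sox9 (0.20 ± 0.08) also had unadjusted p-values under 0.05 there, 3 members in all, and limma called none of the set. With age, Hes5 rose by 0.35 ± 0.10 in wild type (adjusted p = 0.0149) and by 0.50 ± 0.11 in Efemp1ki/ki retinas (adjusted p = 0.000924). At 17 months all 8 libraries exceeded the 3-month median in each genotype, and the ranges overlapped. The wild-type rise lost its call with marker covariates (adjusted p = 0.056).

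Hes1, the other HES gene, fell with Hes5 at 3 months. Wild-type retinas held 11.7, 15.4 and 19.3 CPM (lowest, median and highest) and Efemp1ki/ki retinas 8.96, 11.4 and 13.5. The groups overlapped, and 6 of 8 Efemp1ki/ki libraries lay below the wild-type range. The log2 fold change was -0.41 ± 0.10 (edgeR adjusted p = 0.0301). Leaving out any of 7 libraries at 3 months, wild-type 2, 3 or 4 or Efemp1ki/ki 1, 5, 7 or 8, ended the call (adjusted p = 0.0527 to 0.0852 without them), as did adding marker covariates (0.134).

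At the later ages Hes1 gave smaller differences. Its medians were 14.1 and 13.7 CPM at 9 months (-0.03 ± 0.10, adjusted p = 0.960) and 14.0 and 12.5 CPM at 17 months (-0.19 ± 0.10, adjusted p = 0.362) in wild type and Efemp1ki/ki. Over the 3 ages the mean differences were -0.21 ± 0.06 for Hes1 (adjusted p = 0.0245) and -0.26 ± 0.06 for Hes5 (0.00908), and both calls held in all 48 refits without 1 library. Hes1 did not pass with age in either genotype (-0.13 ± 0.10 in wild type and 0.09 ± 0.10 in Efemp1ki/ki).

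Sox9 lay from 22.1 to 29.1 CPM in wild-type retinas at 3 months (median 25.6) and from 19.96 to 24.4 in Efemp1ki/ki (median 22.4). All 8 Efemp1ki/ki libraries were below the wild-type median, and 3 were below its range. The log2 fold change of -0.19 ± 0.06 had an adjusted p of 0.0627 in edgeR and passed with DESeq2 (0.0466) and with the GC offset (0.0473). At 9 and 17 months the differences were 0.01 ± 0.06 and -0.05 ± 0.06, with adjusted p of 0.991 and 0.740. With age Sox9 rose by 0.16 ± 0.06 in Efemp1ki/ki retinas (adjusted p = 0.0467), to a median of 25.6 CPM, and changed by 0.01 ± 0.06 in wild type (0.909).

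That rise of Sox9 is close to the threshold. The call was lost when any of 15 libraries was left out, 6 of Efemp1ki/ki at 3 months (1, 4, 5, 6, 7 and 8), 5 at 17 months (1, 3, 4, 6 and 7), 2 at 9 months (3 and 6), wild-type library 7 at 17 months and wild-type library 5 at 9 months (adjusted p = 0.0514 to 0.117). It was also lost in 5 of the 9 alternatives: with no filter (0.0786), with only the 2 groups in the fit (0.0854), without the libraries that stood apart (0.0894), with marker covariates (0.0971) and with the GC offset (0.208).

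**Figure D2:**
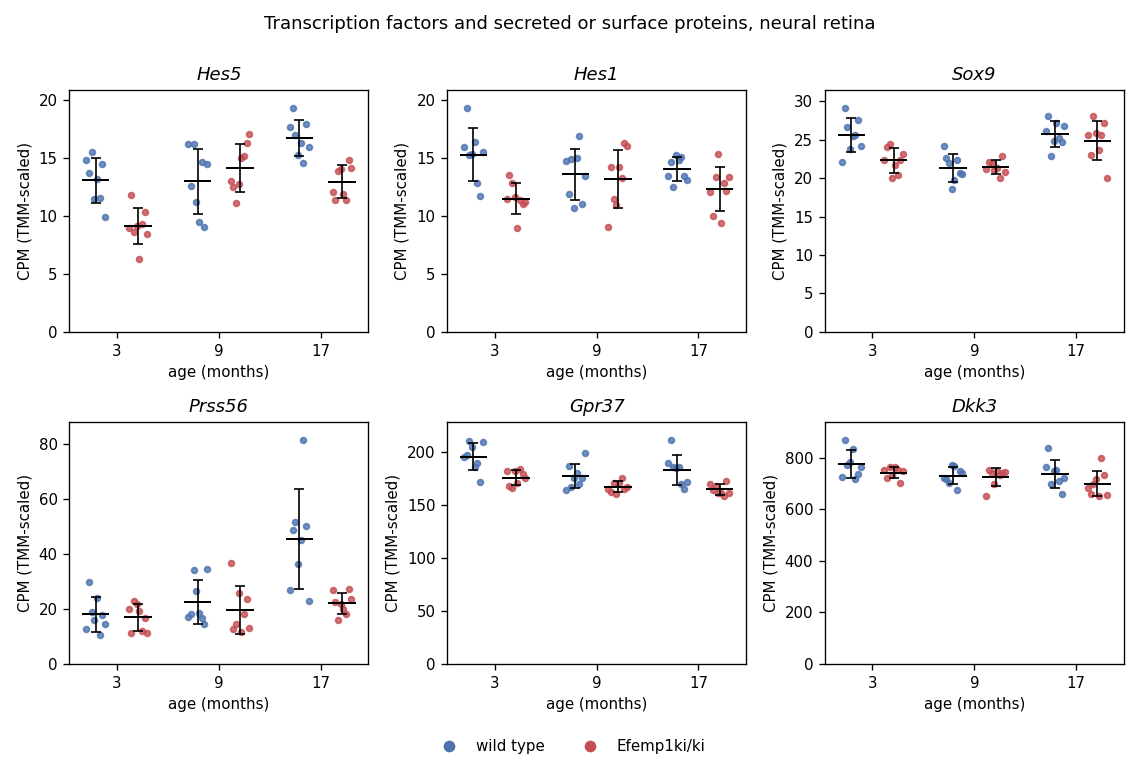
TMM-scaled CPM (y axis) of Hes5, Hes1, Sox9, Prss56, Gpr37 and Dkk3 in each of the 48 retina libraries by age in months (x axis), blue for wild type and red for Efemp1ki/ki, with the mean and SD of each group of 8. The Hes5 medians are 13.4 and 9.04 CPM at 3 months and 16.6 and 12.9 at 17 months in blue and red, and the blue points of Prss56 at 17 months reach 81.5 CPM while the red ones end at 27.2.

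Gpr37, the receptor gene, showed a small difference of the same sign at each age. At 3 months the wild-type retinas held 172, 196 and 210 CPM (lowest, median and highest) and the Efemp1ki/ki retinas 166, 177 and 183. In that comparison 7 of 8 wild-type libraries exceeded the whole Efemp1ki/ki range. The log2 fold change was -0.15 ± 0.04 (edgeR adjusted p = 0.0383). The call was lost without any of 9 libraries at 3 months, wild-type 2, 3, 4 or 8 or Efemp1ki/ki 1, 3, 5, 7 or 8 (adjusted p = 0.0537 to 0.0967), and with marker covariates (0.179), no filter (0.0621) or limma on TPM (0.138).

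At 9 months the Gpr37 medians were 175 and 166 CPM (-0.09 ± 0.04, adjusted p = 0.808), and at 17 months 185 and 162 CPM (-0.15 ± 0.04, adjusted p = 0.0784). The 17-month difference passed when wild-type library 7 or 8 of that age was left out (edgeR adjusted p = 0.0345 to 0.0460). All 8 Efemp1ki/ki libraries were below the wild-type median at each of the 3 ages. Averaged over the 3 ages, Gpr37 was lower in Efemp1ki/ki by 0.13 on the log2 scale, ± 0.02 (edgeR adjusted p = 0.00107). This was the smallest adjusted p of the set in a genotype comparison. That call was kept in all 48 refits without 1 library, with adjusted p from 0.000361 to 0.00265. The changes with age, -0.10 ± 0.04 in wild type and -0.09 ± 0.04 in Efemp1ki/ki, did not pass (0.0906 and 0.0993). Leaving out wild-type library 2 at 17 months or 7 at 3 months moved the wild-type change past the threshold (0.0160 and 0.0272).

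Prss56, the eye growth protease gene, had the largest fold changes of the set and the widest spread between libraries. In wild-type retinas it stood at 10.6, 16.9 and 29.8 CPM at 3 months (lowest, median and highest), 14.5, 18.4 and 34.3 at 9 months, and 22.9, 46.9 and 81.5 at 17 months. In Efemp1ki/ki retinas the same values were 11.3, 17.9 and 23.0 CPM at 3 months, 11.4, 16.3 and 36.7 at 9 months, and 16.0, 22.2 and 27.2 at 17 months. The genotype ranges lay over each other at 3 and 9 months, and at 17 months 6 of 8 wild-type libraries exceeded the whole Efemp1ki/ki range.

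The log2 fold change of Prss56 between genotypes was -0.11 ± 0.26 at 3 months (edgeR adjusted p = 0.857), -0.22 ± 0.25 at 9 months (0.897) and -1.03 ± 0.24 at 17 months (0.0415). The call at 17 months was lost without any of 12 libraries, wild-type 1, 2, 4, 5 or 6 or Efemp1ki/ki 2, 3, 4, 5, 6 or 8 at 17 months or wild-type 8 at 3 months, with log2 fold changes of -1.12 to -0.85 and adjusted p of 0.0505 to 0.138. It was lost as well with the replicate number as a block (0.0513), with marker covariates (0.0510), without a filter (0.0823), without the libraries that stood apart (0.109) and with only the 2 groups in the fit (0.160). In the mean genotype difference over the ages Prss56 was not called. Leaving out any of 17 libraries brought it past the threshold there (edgeR adjusted p = 0.0239 to 0.0494).

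With age Prss56 rose in wild type by 1.32 ± 0.24 (adjusted p = 0.000151), and all 8 libraries at 17 months exceeded the 3-month median. In Efemp1ki/ki retinas the change was 0.39 ± 0.25 (0.280). Passing in 1 genotype only is no test of a difference. The difference itself, the shift of the genotype effect between 3 and 17 months, was -0.93 ± 0.35 and did not pass (unadjusted p = 0.0110 and adjusted p = 1.00 in edgeR's fit, and 0.828 to 1.00 over the alternatives). No member and no gene at all (0.0%) was called in that comparison by edgeR, DESeq2 or limma, and edgeR gave 690 genes an unadjusted p under 0.05, with Prss56 as the 1 member among them.

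Dkk3, the secreted glycoprotein gene, did not pass in any comparison. Its medians in wild-type retinas were 769, 732 and 736 CPM at 3, 9 and 17 months, and in Efemp1ki/ki retinas 749, 739 and 690. The genotype differences ran from -0.07 ± 0.04 at 17 months to -0.01 ± 0.04 at 9 months. With age it changed by -0.07 ± 0.04 in wild type and -0.08 ± 0.04 in Efemp1ki/ki (adjusted p = 0.228 and 0.162), the latter passing with the GC offset (-0.16, adjusted p = 0.00346) and without Efemp1ki/ki library 6 at 17 months (-0.12, 0.0432).

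Slc1a3, the glutamate transporter gene, fell with age in both genotypes, without overlap in CPM. Wild-type retinas held 214, 233 and 247 CPM (lowest, median and highest) at 3 months, 203, 208 and 232 at 9 months, and 186, 190 and 201 at 17 months. Efemp1ki/ki retinas held 205, 218 and 275 CPM at 3 months, 189, 199 and 207 at 9 months, and 172, 179 and 191 at 17 months. In each genotype all 8 libraries at 17 months lay below the whole 3-month range, as was seen for 0.557% of all genes in wild type and 0.887% in Efemp1ki/ki. The log2 fold changes were -0.28 ± 0.04 (edgeR adjusted p = 4.13e-07) and -0.31 ± 0.04 (5.61e-08), and both calls held under each of the 9 alternatives. The smallest falls among these were -0.19 in wild type and -0.20 in Efemp1ki/ki. In the deposited TPM the Efemp1ki/ki ranges touched, with 124.8 in library 7 at 17 months and 124.6 in library 2 at 3 months.

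Slc1a3 was also somewhat lower in Efemp1ki/ki retinas, by 0.06 ± 0.04, 0.09 ± 0.04 and 0.09 ± 0.04 on the log2 scale at 3, 9 and 17 months, none of which passed. The mean over ages was -0.08 ± 0.02 and passed in edgeR (adjusted p = 0.0287), but not without a filter (0.0632) or with marker covariates (0.107). At 9 and 17 months 6 of 8 Efemp1ki/ki libraries lay below the wild-type range. The highest value of the gene, 275 CPM, was in Efemp1ki/ki library 5 at 3 months, which stood apart. Without that library and the other that stood apart, the fall with age in Efemp1ki/ki was -0.27 (adjusted p = 5.27e-08) and the mean genotype difference -0.09 (0.00342).

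Glul, the glutamine synthetase gene and the most abundant of the set, had small differences. Its wild-type values were 2506, 2854 and 3125 CPM at 3 months (lowest, median and highest) and 2391, 2633 and 2883 at 17 months, and its Efemp1ki/ki values 2531, 2638 and 2777 and then 2395, 2517 and 2706. All of these groups overlapped. At 3 months all 8 Efemp1ki/ki libraries lay below the wild-type median (-0.11 ± 0.04, edgeR adjusted p = 0.123), and the difference passed only without wild-type library 7 at 3 months (0.0458). With age Glul fell in wild type by 0.12 on the log2 scale, ± 0.04 (adjusted p = 0.0240). That call was lost without any of 6 wild-type libraries, 2, 4 or 5 at 3 months or 3, 6 or 7 at 17 months (0.0514 to 0.0709), and with marker covariates (0.344), limma on TPM (0.0996) or only the 2 groups in the fit (0.121).

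Aqp4 and Kcnj10, the water and potassium channel genes of the endfeet, passed in no comparison in edgeR's fit of the 6 groups. Aqp4 medians lay between 173 and 195 CPM over the 6 groups, and Kcnj10 medians between 90.9 and 97.4. The genotype differences of Aqp4 were -0.01 ± 0.07, -0.07 ± 0.07 and 0.02 ± 0.07 at 3, 9 and 17 months. Those of Kcnj10 were 0.02 ± 0.06, -0.08 ± 0.06 and -0.03 ± 0.06. With age the changes were -0.02 ± 0.07 and 0.01 ± 0.07 for Aqp4 in wild type and Efemp1ki/ki, and -0.03 ± 0.06 and -0.08 ± 0.06 for Kcnj10. In the deposited TPM the mean of Aqp4 rose from 106 ± 4.89 at 3 months to 116 ± 4.97 at 17 months in wild type (SD). In Efemp1ki/ki it rose from 104 ± 4.57 to 119 ± 5.77. The log2 CPM of Aqp4 ran against the GC trend of the libraries at Pearson r = -0.87, after removing group means. A p that misses the threshold does not show that levels were equal. In CPM, at these SE, the fitted changes of both genes were smaller than the fall of Slc1a3 with age. In the deposited TPM the mean of Slc1a3 fell from 138 to 121 in wild type and from 134 to 117 in Efemp1ki/ki. The latter fall was close in size to the rise of Aqp4 in Efemp1ki/ki on that scale.

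**Figure D3:**
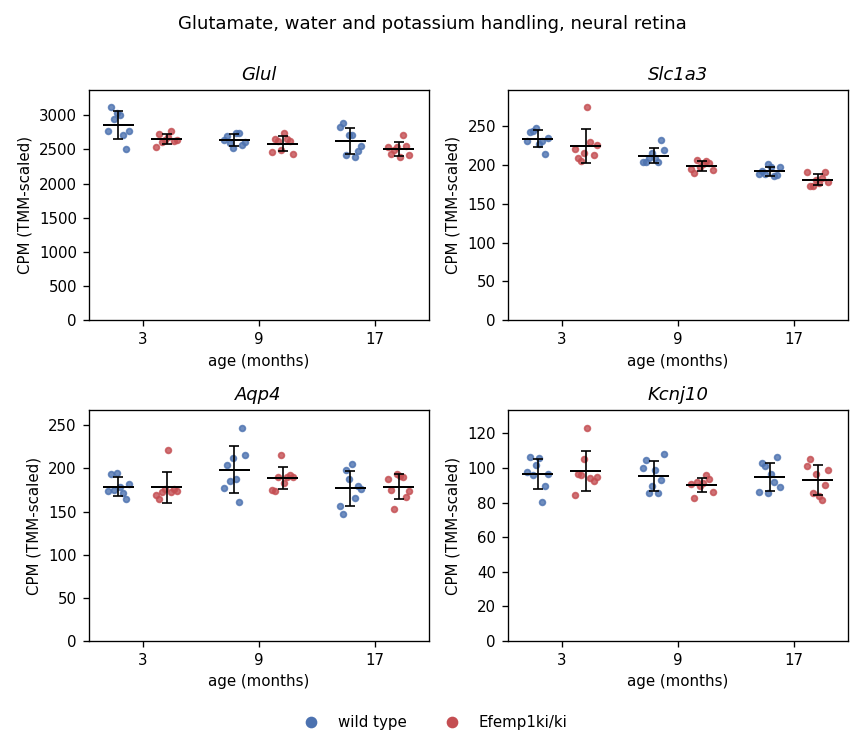
TMM-scaled CPM (y axis) of Glul, Slc1a3, Aqp4 and Kcnj10 in each of the 48 retina libraries by age in months (x axis), blue for wild type and red for Efemp1ki/ki, with the mean and SD of each group of 8. Slc1a3 steps down with age in both genotypes, from medians of 233 and 218 CPM to 190 and 179, while the group medians of Aqp4 lie between 173 and 195 CPM and those of Kcnj10 between 90.9 and 97.4.

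Transcript GC content ordered some of this variation. Aqp4 has the lowest GC of the set (41.4% of its longest transcript) and Hes5 the highest (62.1%). Efemp1ki/ki library 5 at 3 months, with a GC trend of -0.34, held the highest Slc1a3, Aqp4 and Kcnj10 values of its group (275, 221 and 123 CPM) and its lowest Hes5 and Hes1 values (6.30 and 8.96). In the deposited TPM that library's Hes5 value was not low, at 26.6 against a group mean of 24.4. Its Hes1 value there, 19.7, was below the group mean of 23.1. Wild-type library 2 at 17 months, with a trend of 0.42, held the lowest Aqp4 and the highest Hes5 value of its group (147 and 19.3 CPM). Wild-type library 7 at 9 months also had a trend of -0.34 but was not set apart. It held the highest Aqp4 and the lowest Hes5 value of its group (247 and 9.07 CPM). Its Hes5 value in the deposited TPM was 38.0, against a group mean of 38.4. At 3 months the trend ran from -0.34 to 0.05 in Efemp1ki/ki libraries and from -0.03 to 0.09 in wild type. With an offset per library for GC, Hes5 was still lower at 3 months (-0.43, adjusted p = 0.00955), as were Hes1 (-0.40, 0.0201) and Gpr37 (-0.17, 0.0279). Without the 2 libraries that stood apart the values were -0.46 (0.0161), -0.36 (0.0460) and -0.14 (0.0476).

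**Figure D4:**
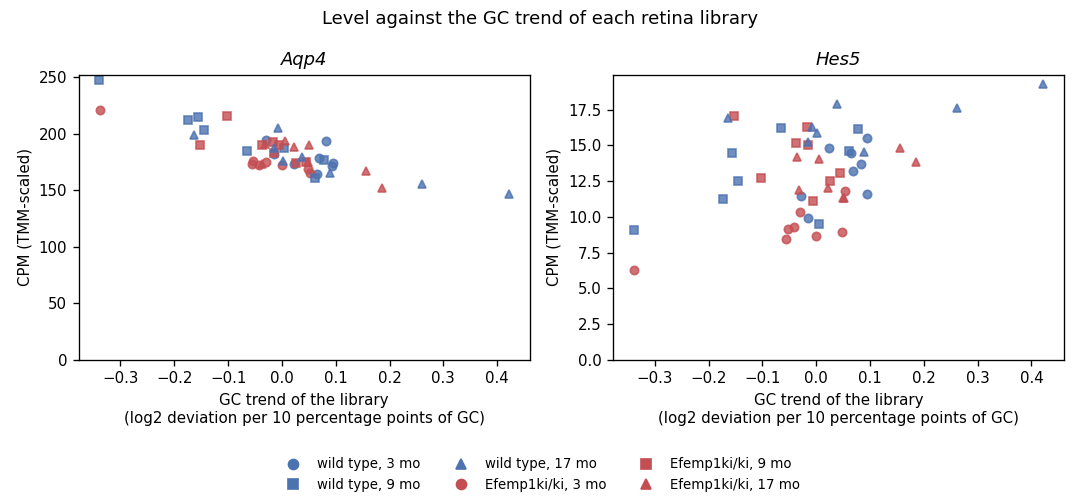
CPM of Aqp4 (left) and Hes5 (right) on the y axis against the GC trend of each of the 48 retina libraries (log2 deviation per 10 percentage points of GC) on the x axis, coloured by genotype with a marker shape per age. Aqp4 runs from 247 CPM in a library with a trend of -0.34 down to 147 CPM in the library with a trend of 0.42, and the lowest Hes5 value, 6.30 CPM, is in the other library with a trend of -0.34.

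Markers of other cell types moved in part with the groups. At 3 months no lens marker was called (0 of 10 tested). Their summed level was 4.85 to 86.9 TPM in the wild-type libraries (median 6.13) and 5.71 to 2864 TPM in the Efemp1ki/ki libraries (median 33.7), with 4 of the 15 lens genes in the files (Crygc, Crygd, Cryge and Lim2) at 0 in the median library. Astrocytes share Glul, Slc1a3, Aqp4, Kcnj10 and Sox9 with Mueller glia. Of 6 astrocyte markers 1, S100b, fell at 3 months (-0.41, edgeR adjusted p = 0.0333), and the list's median log2 fold change was -0.34. The sum of these markers was 157 to 177 TPM in wild type against 157 to 172 in Efemp1ki/ki, and none was at 0. No rod marker (0 of 13) and no pigment epithelium marker (0 of 12) was called at 3 months. Of 11 ocular surface epithelium markers tested 1, Cdh1, was lower (-0.95, adjusted p = 0.0462), the list's median was -1.53, and its sum was 20.8 to 454 TPM in wild-type and 11.9 to 71.1 TPM in Efemp1ki/ki libraries. With the mean levels of the pigment epithelium, lens and rod lists as covariates, Hes5 was lower at 3 months by 0.55 (adjusted p = 0.0491). The pigment epithelium list includes Rlbp1, which is also in the list of other Mueller glia genes, so these covariates are not wholly of other cell types. The part of astrocytes and of ocular surface epithelium in these differences was not tested.

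Over the 3 ages 9 of 10 lens markers tested were higher in Efemp1ki/ki, where 5.24% of all genes were called and 2.69% called lower. Of the ganglion cell markers 4 of 8 were lower, Rbpms (-0.11), Sncg (-0.20), Nefm (-0.11) and Thy1 (-0.12), as were the bipolar cell genes Vsx1 (-0.12) and Cabp5 (-0.09), and the part of these cell types in the members' differences was not tested. With the marker covariates the mean differences were -0.12 for Gpr37 (adjusted p = 0.00988), -0.26 for Hes5 (0.0383), -0.25 for Hes1 (0.0303) and -0.07 for Slc1a3 (0.107). With age 7 of 10 microglia markers rose in wild type and 9 of 10 in Efemp1ki/ki, where their sum was 98.1 to 118 TPM at 3 months and 152 to 182 at 17 months. In Efemp1ki/ki retinas 3 of 6 astrocyte markers (Gfap, S100b and Fgfr3) and 5 of 12 pigment epithelium markers also rose, beside the rises of Hes5 and Sox9. Ganglion cell markers fell with age, 4 of 8 in wild type and 6 of 8 in Efemp1ki/ki, as did cone markers, 5 of 9 and 3 of 9. Of all genes 7.92% were called lower with age in wild type and 9.01% in Efemp1ki/ki. The shares called higher were 9.89% and 9.74%. Ocular surface epithelium markers fell in wild type, 7 of 11 tested (median -2.06, with sums of 20.8 to 454 TPM at 3 months and 15.0 to 65.1 at 17 months). Lens markers fell in Efemp1ki/ki, 5 of 10 tested (median -2.82). With the marker covariates Slc1a3 still fell with age, by 0.23 in wild type (adjusted p = 8.54e-05) and 0.27 in Efemp1ki/ki (1.17e-05), and the part of microglia, astrocytes, ganglion cells, cones and ocular surface epithelium was not tested.

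No other gene of the Notch pathway was called lower with Hes5 and Hes1 at 3 months. Of 23 ligand, receptor, modifier and target genes tested 1 was called, Jag1, which encodes a Notch ligand and rose by 0.22 ± 0.05 (edgeR adjusted p = 0.0137). The list's median log2 fold change was 0.01. Jag1 was also higher in the mean over ages (0.14 ± 0.03, adjusted p = 0.00354), again as 1 of 23. At 17 months none passed, with Jag1 at 0.16 ± 0.05 (adjusted p = 0.109) and the target Heyl at -0.33 ± 0.12 (0.159), and at 9 months none passed. With age 3 of 23 rose in wild type (against 9.89% of all genes), and in Efemp1ki/ki 2 rose and 2 fell (against 9.74% and 9.01%), shares near those of all genes. The receptor gene Notch2 rose in both genotypes (0.29 ± 0.05 and 0.19 ± 0.05), as did the ligand gene Dll1 (0.22 ± 0.07 and 0.26 ± 0.07). Notch1 rose in wild type (0.18 ± 0.05), and the target Hey1 (-0.24 ± 0.07) and the coactivator gene Maml3 (-0.22 ± 0.07) fell in Efemp1ki/ki.

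Other genes typical of Mueller glia gave no call at 3 months in edgeR (0 of 19), the lowest adjusted p being those of Mlc1 (-0.18 ± 0.05, 0.0529) and Lhx2 (-0.16 ± 0.05, 0.0780). The median of this list was -0.11. In the mean genotype difference over the 3 ages 2 of 19 were lower in Efemp1ki/ki. They were Rlbp1, the gene of the retinoid binding protein CRALBP (-0.09 ± 0.03, edgeR adjusted p = 0.0215), and Lhx2, a transcription factor gene (-0.11 ± 0.03, 0.0260). Among Sox and glial transcription factor genes, Six3 (-0.11 ± 0.03, edgeR adjusted p = 0.00841) and Lhx2 were among those lower in Efemp1ki/ki in that mean. With age Sox4 fell in both genotypes (-0.27 ± 0.07 and -0.44 ± 0.07). In Efemp1ki/ki retinas Sox10, a gene of oligodendrocytes and Schwann cells, rose by 1.77 ± 0.42 and Sox5 and Sox11 fell (-0.23 ± 0.06 and -0.49 ± 0.18). Abca8a fell with age in both (-0.23 ± 0.05 and -0.22 ± 0.05), and Apoe rose in Efemp1ki/ki (0.28 ± 0.09). Of the 19 other Mueller glia genes 1 thus fell in wild type, and 2 rose and 2 fell in Efemp1ki/ki, Slc38a3 and Kcnj2 being the others.

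Genes that work beside Slc1a3 and Glul gave few calls. None of 14 glutamate, GABA and glutamine transfer genes was called at 3, 9 or 17 months. In the mean genotype difference over the ages the GABA transporter gene Slc6a11 was lower in Efemp1ki/ki (-0.08 ± 0.02, edgeR adjusted p = 0.0238). With age Glud1, encoding glutamate dehydrogenase, fell in both genotypes (-0.11 ± 0.04 and -0.12 ± 0.04). Slc38a3, a glutamine transporter gene, rose in Efemp1ki/ki (0.17 ± 0.05, adjusted p = 0.0118). Of the 14 tested genes of the dystrophin complex that anchors the endfoot channels, and of related channels, none was called between genotypes. With age the water channel gene Aqp1 rose in both (0.24 ± 0.06 and 0.28 ± 0.06), as did Dtnb (0.17 ± 0.05 in each). Sntb1 (0.20 ± 0.06) and Dmd (0.21 ± 0.07) rose in wild type, and the potassium channel gene Kcnj2 fell in Efemp1ki/ki (-0.39 ± 0.10).

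Many reactive gliosis genes rose with age. In wild type 9 of 18 rose, against 9.89% of all genes, and 1 fell, with a list median of 0.27. The 6 with the smallest p among those that rose were Osmr (0.42 ± 0.07), A2m (1.04 ± 0.17), Edn2 (1.07 ± 0.18), C4b (1.03 ± 0.18), Stat3 (0.18 ± 0.04) and Lcn2 (0.68 ± 0.16), and the intermediate filament gene Nes fell (-0.47 ± 0.09). In Efemp1ki/ki 11 rose, against 9.74% of all genes, and 1, Nes (-0.29 ± 0.09), fell, with a median of 0.51. C4b, a complement component gene, led there (2.06 ± 0.17, adjusted p = 2.75e-12), before Osmr (0.67 ± 0.07), Stat3 (0.34 ± 0.04), Edn2 (1.497 ± 0.18), A2m (1.28 ± 0.17) and Lcn2 (1.09 ± 0.16). Between genotypes C4b alone of the 18 was called, higher in Efemp1ki/ki at 17 months (1.17 ± 0.16, adjusted p = 0.000147) and over the ages (0.66 ± 0.10, 0.000215).

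Genes related to Gpr37, Prss56 and Dkk3 gave single calls. Of 8 genes that encode the ligand or paralogue of Gpr37 or take part in eye size, Egr1, an activity-induced transcription factor gene, was higher in Efemp1ki/ki at 3 months (1.78 ± 0.38, adjusted p = 0.0137) and over the ages (1.09 ± 0.22, 0.00401). The paralogue Gpr37l1 and Bmp3 fell with age in wild type (-0.49 ± 0.17 and -0.34 ± 0.08) and in Efemp1ki/ki (-0.54 ± 0.18 and -0.39 ± 0.08). Of 16 Wnt modulators and targets tested none was called between genotypes at a single age. In the mean genotype difference over the ages Nkd1 was lower in Efemp1ki/ki (-0.14 ± 0.04, edgeR adjusted p = 0.0201). Rnf43, a Wnt target that removes Wnt receptors, rose with age by 1.57 ± 0.10 and 1.70 ± 0.10. In Efemp1ki/ki Tcf7 also rose (0.36 ± 0.12) and Nkd1 fell (-0.19 ± 0.07).

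Across the 48 libraries, after removing group means, the 10 genes did not vary as 1 block. Of 45 pairs 5 passed at an adjusted p under 0.05 (permutation of libraries within groups, 2-sided, Benjamini-Hochberg over the pairs), 4 positive and 1 negative, and the median Pearson r was 0.06. The most alike were Glul and Dkk3 (r = 0.66, rho = 0.60, adjusted permutation p = 0.00045 and 0.0027, and r = 0.63 without the 2 libraries farthest from the median). Slc1a3 and Aqp4 followed (r = 0.61, rho = 0.53, adjusted permutation p = 0.000675 and 0.00315, and r = 0.44 without 2). Hes1 and Hes5 varied together at r = 0.47 and rho = 0.43 (adjusted permutation p = 0.0192 and 0.0561, and r = 0.48 without 2). Glul and Hes1 gave r = 0.44 and rho = 0.40 (0.0166 and 0.0503, and r = 0.38 without 2). Hes5 and Aqp4, the genes with the highest and lowest GC content, were opposed at r = -0.49 and rho = -0.39 (0.0192 and 0.0720, and r = -0.31 without 2). The GC trend of the libraries itself gave r = -0.87 with Aqp4, -0.46 with Slc1a3, 0.44 with Hes5, 0.37 with Glul, 0.32 with Hes1 and 0.17 with Dkk3. Its part in these pairs was not tested.

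**Figure D5:**
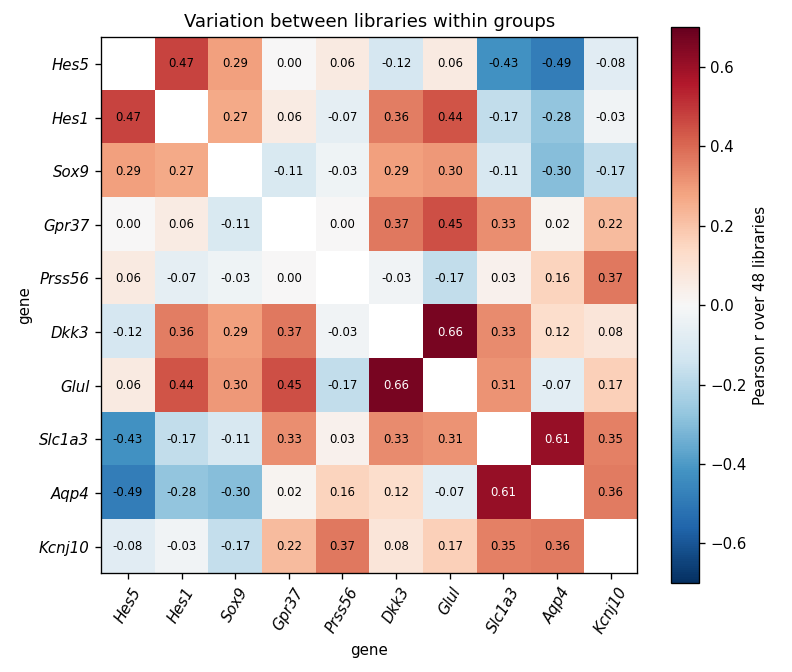
Pearson r of log2 CPM, after removing group means, between each pair of the 10 genes (both axes) over the 48 retina libraries, on a colour scale from blue (negative) to red (positive). Glul with Dkk3 (0.66) and Slc1a3 with Aqp4 (0.61) are the highest cells, and Hes5 with Aqp4 (-0.49) is the lowest.

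Outside the set, the gene whose variation over the 48 libraries was most like that of each member was found by the same Pearson r, given as a description. Libraries share depth and the GC trend, which enter these values. Glul was most like the glycolysis genes Eno1 (0.80), Pkm (0.76) and Gapdh (0.75). Dkk3 was most like Crhbp (0.78), Olfml2a (0.78) and Gldc (0.77), Slc1a3 like Emc7 (0.80), Aqp4 like Arl5a (0.91) and Kcnj10 like Dzank1 (0.79). Hes5 was most like Them6 (0.69), Hes1 like Mob2 (0.67), Sox9 like Leng9 (0.67) and Gpr37 like Arhgap24 (0.67). Prss56 was most like Tgfa (0.65), an EGF receptor ligand gene, Nkd1 (0.58) and Col22a1 (0.58).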

How the data were processed

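Estimated counts per gene for 48 neural retina libraries, as the authors deposited them, were rounded to whole numbers. Group and replicate were read from each sample's title. The values deposited by the authors as TPM are scaled so that protein-coding genes sum to 1000000 and were treated as a score. They served for levels per length, marker sums and 1 alternative. Build GRCm38.p4 is given by the submitters' processing notes. Libraries were made with a stranded kit per the labels' protocols, with aligner and strand setting not given in the sources used here. In each file 1 column matched no sample and was not used.

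All 6 groups were fitted together with edgeR 4.0.16 in R 4.3.3 (filterByExpr, TMM, robust quasi-likelihood test, Benjamini-Hochberg adjustment over 17240 genes, called at an adjusted p under 0.05), and the fit was tested on simulated data. SE of log2 fold changes came from the F statistic. Alternatives were DESeq2 1.42.0, limma 3.58.1 on log2(TPM + 1), RLE size factors, no filter, the replicate number as a block, marker covariates, a GC offset (spline with 5 degrees of freedom), the 2 groups compared alone, leaving out libraries that stood apart by more than 3 scaled median absolute deviations, and leaving out each library. Permutation tests used 100000 resamples.

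All 10 members were tested in each comparison, and some values that missed the threshold are not printed. The rule for pathway lists was to name the called genes (at most 6 in each direction) and otherwise up to 2 with the smallest p, and for each member it was to name up to 3 genes with the highest r. The members and lists were chosen with earlier results of these data known. Some called genes of these lists are not reported here.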

Additional observations from a re-analysis of the deposited data

Results flagged for a closer look

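In 3 of 60 groups of 8 libraries (10 genes in 6 groups), 1 library lay far from the others, with a gap to its neighbour over 0.526 of the group's range. Chance gives about 1 in 20 such groups. Slc1a3 was at 274.7 CPM in Efemp1ki/ki library 5 at 3 months, where the next library held 229.7. Aqp4 was at 220.9 CPM in that same library, which also stood apart over all genes, and the next held 175.7. Aqp4 was also at 215.5 CPM in Efemp1ki/ki library 5 at 9 months, where the next held 192.7.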

How the results depend on the processing

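No called gene of the set changed direction under any of the alternatives run, and with RLE size factors no member count moved by over 1.5 times. Of the 3 members called at 3 months, 1 was left with marker covariates (Hes5). At 17 months the count of 1 became 0 with no filter, with the replicate block, with marker covariates, without the libraries that stood apart and with the 2 groups alone, 2 with limma on TPM, and 3 with DESeq2 and with the GC offset. The 4 calls with age in wild type became 2 with marker covariates, and the 3 in Efemp1ki/ki became 5 with the GC offset. DESeq2 called 1 member in the shift of the genotype effect between 3 and 9 months (Hes5). Leaving out 1 library at a time gave 1 to 4 members called at 3 months, 0 at 9 months and 0 to 2 at 17 months. It gave 4 to 6 for the mean genotype difference over the ages. With age it gave 3 to 5 for wild type and 2 to 3 for Efemp1ki/ki, and for both shifts of the genotype effect it gave 0.

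Counts over all genes moved more. At 3 months 316 genes became 22 with marker covariates, 121 with no filter, 497 with the GC offset, 535 without the libraries that stood apart, 557 with the 2 groups alone, 594 with DESeq2 and 648 with limma, and 54 to 765 when 1 library was left out. At 17 months 70 became 1 without the libraries that stood apart or with the 2 groups alone, 3 with no filter, 17 with marker covariates, 243 with the GC offset, 272 with DESeq2 and 682 with limma, and 1 to 203 when 1 library was left out. For the mean genotype difference over the ages 903 became 350 with marker covariates, 562 with no filter, 1876 with the GC offset and 2008 with limma. With age, 3071 in wild type became 1316 with marker covariates and 4771 with the GC offset, and 3233 in Efemp1ki/ki became 1661 with marker covariates. For the shift between 3 and 9 months 3 became 14 with DESeq2, 7 with the replicate block, 2 without the libraries that stood apart, and 0 with the GC offset, limma, marker covariates or no filter. The cause was not tested.

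Scaling moved the split of calls. Of the genes called with age in wild type 55.5% were higher, against 31.4% with the GC offset and 83.5% with limma on TPM. In Efemp1ki/ki these shares were 52.0, 26.3 and 81.9%, over the ages between genotypes 48.6, 35.4 and 83.5%, at 3 months 52.5, 56.7 and 89.5%, and at 17 months 44.3, 34.2 and 84.9%. Replicate numbers did not pair the libraries: same-numbered libraries of different groups correlated at 0.00594 on average. For 5 of 48 libraries, their own number was the one with the highest mean correlation among libraries of other groups. The lowest estimated count of a member in a retina library was 71, for Hes5, the gene of the set with the fewest reads in any library and so with the largest counting error.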
